A study of Homo sapiens with 16 samples.

Results

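The genes that encode the proteasome and its assembly factors were examined in RNA-seq data from LN229, an established human glioblastoma cell line. They were defined by symbol, as every gene whose symbol is PSM followed by a letter from A to G and a number. In all, 43 genes met this rule, among 13475 genes listed in both of the study's 2 experiments (13559 in the first and 14024 in the second), and each of the 43 was listed in both. A further 5 genes with such a symbol (*PSMA8*, *PSMB3*, *PSMB8*, *PSMB9* and *PSMB11*) were listed in neither experiment and could not be analysed. The first experiment compared untreated LN229 cells in regular culture with untreated cells in ischemic culture, which combines low glucose, low glutamine, low serum and hypoxia. The second experiment compared the same 2 cultures with DMSO (the solvent control), with VX745 (an inhibitor of the kinase p38α) or with MK25 (an inhibitor of MK2, a kinase that p38 activates). Each of the 8 groups had 2 libraries, 16 in all. All groups are a single cell line with no transgene named in the labels, which give neither the time in ischemic culture nor the inhibitor concentrations.

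The proteasome degrades proteins that carry ubiquitin chains. Its core particle is a barrel of alpha (PSMA) and beta (PSMB) rings, in which PSMB5, PSMB6 and PSMB7 hold the proteolytic sites. The regulatory particle that caps the barrel has a ring of ATPases (PSMC), which unfold the substrate, and non-ATPase subunits (PSMD), which bind and remove ubiquitin. PSME proteins are alternative caps, PSMF1 is a proteasome inhibitor, and PSMG proteins with PSMD5, PSMD9 and PSMD10 are chaperones of assembly. When proteasome capacity is low, cells can raise the subunit genes together through the transcription factor NFE2L1 (NRF1), which binds antioxidant response elements in their promoters. Glioblastoma cells have been studied as targets of drugs that block the catalytic subunits.

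The core of the antioxidant response element (TGACNNNGC, where N is any base, searched on both strands) was present in the 250 bases before the start site of 9 of the 37 members with a promoter sequence in RefSeq, or 24.3%. It was present in 12.1% of the 11087 tested genes with such a sequence. The members were *PSMD3*, *PSMD5*, *PSMD9*, *PSMD12*, *PSME1*, *PSME2*, *PSME4*, *PSMG1* and *PSMG2*. Stretches around the match (in capitals) are shown for 3 members that were lower and 2 that were higher in ischemic culture, written along the gene's strand (GRCh38.p14).
PSMD3, chr17:39980730-39980806, plus strand: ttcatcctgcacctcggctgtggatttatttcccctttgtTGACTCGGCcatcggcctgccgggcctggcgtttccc
PSMD12, chr17:67366694-67366782, minus strand: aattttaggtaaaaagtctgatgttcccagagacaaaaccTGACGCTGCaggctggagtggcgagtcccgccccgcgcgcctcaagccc
PSMD5, chr9:120843008-120843096, minus strand: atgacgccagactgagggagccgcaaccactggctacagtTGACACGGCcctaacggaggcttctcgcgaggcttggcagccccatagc
PSME1, chr14:24136068-24136156, plus strand: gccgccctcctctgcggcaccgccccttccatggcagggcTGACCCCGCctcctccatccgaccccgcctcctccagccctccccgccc
PSMG2, chr18:12658659-12658737, plus strand: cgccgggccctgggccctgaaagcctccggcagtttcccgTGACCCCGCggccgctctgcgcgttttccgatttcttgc
The *PSME1* and *PSMG2* matches held the same 9 bases. Of the 9 members with a match, 6 were lower in ischemic culture with DMSO, as were 30 of all 43 members. The CCAAT box (CCAAT) was present in 15 of the 37 members (40.5%) and in 35.1% of all these promoters, and the amino acid response element core (TGATGNAA) in 0 of 37 members and in 1.49% of all. A match of letters does not show that a factor binds there.

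Between 20122017 and 37562668 reads per library lay on the listed genes. No library of the 16 had fewer than 138 reads on any member, so every member was detected in every library. The labels name no separate cultures, so the p-values below measure only the spread between libraries of the same group, which may be technical. That spread is pooled over all groups of an experiment, also those not compared, and is moderated over all genes. Of the glioma and neural lineage genes checked, *VIM*, *NES* and *CD44*, which are usual in glioblastoma lines, were high in every library. Their log2 CPM was 11.1 to 12.8, 8.40 to 9.90 and 9.57 to 9.98. *S100B* (4.54 to 5.47) and *SOX2* (3.13 to 6.48) were lower. *OLIG2* (0.94 to 3.09) and the astrocyte marker *GFAP* (−0.36 to 1.06) were the lowest. *CA9*, a gene induced by hypoxia, ranged from −2.01 to 7.70. In bulk RNA, fewer cells of a kind and less RNA per cell cannot be told apart.

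Ischemic culture lowered the share of reads on proteasome genes in both experiments. In untreated cells, the 43 genes took 0.828% and 0.786% of the reads in the regular libraries and 0.468% and 0.478% in the ischemic libraries. With DMSO, the shares were 0.857% and 0.829% in regular culture and 0.577% and 0.571% in ischemic culture. The shares did not overlap between the cultures in either experiment. In regular culture, the shares with VX745 (0.877% and 0.844%) and MK25 (0.868% and 0.815%) overlapped those with DMSO. In ischemic culture, the shares with VX745 (0.540% and 0.550%) and MK25 (0.528% and 0.518%) were all below both DMSO libraries. With 2 libraries against 2, no exact test of a single value can reach p = 0.05, and these shares were not tested.

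**Figure D1:**
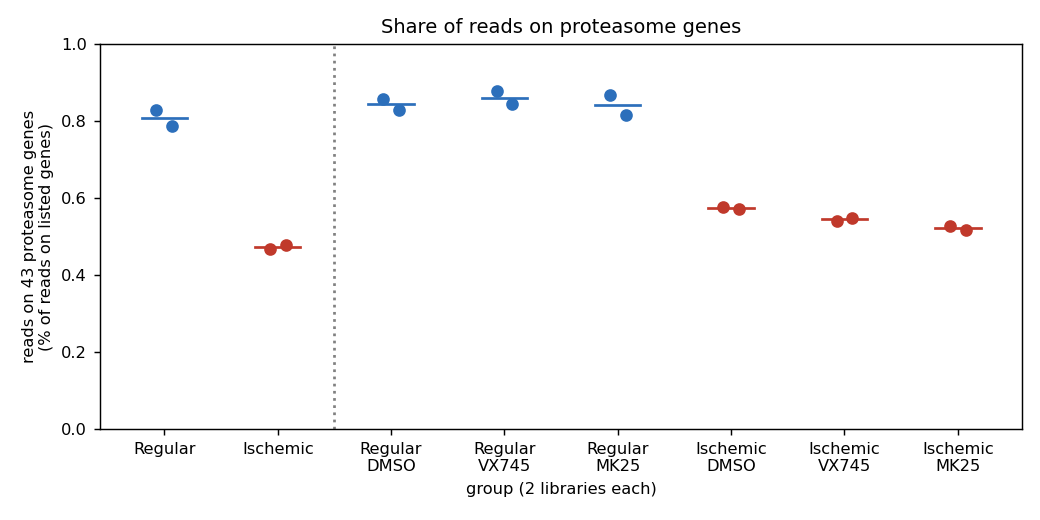
Reads on the 43 proteasome genes as a percentage of reads on all listed genes, for each library (points) and group mean (lines), with the 4 untreated libraries left of the dotted line. Ischemic libraries (red) lay between 0.468% and 0.577%, and regular libraries (blue) between 0.786% and 0.877%.

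Per gene, values are log2 normalized CPM as deposited, with reads scaled to a library size set by the authors' normalization. Fold changes are differences between group means on that log2 scale. A gene is called when its p from limma, adjusted over all genes, is under 0.05. In untreated cells, 33 of 43 members were lower in ischemic culture, 3 were higher and 7 were not called. Of all genes, 35.2% were called lower and 35.2% higher. The median fold change of the members was −0.55 (a ratio of 0.683), against −0.01 for all genes. At a fold change of at least 1.5, 19 members were lower and 0 higher, against 20.2% and 21.3% of all genes. With DMSO, 30 members were lower in ischemic culture, 6 higher and 7 not called, against 35.2% and 34.4% of all genes. The median there was −0.38 (a ratio of 0.769), again against −0.01 for all genes. At the larger fold, 10 members were lower and 1 (*PSMG2*) higher, against 17.9% and 18.1%. Although the experiments used separate libraries, 30 members were lower in both and 3 (*PSME1*, *PSMF1* and *PSMG2*) were higher in both, with 0 called in opposite directions. Of the 3, only *PSMG2* was called in untreated cells in every alternative and with each library left out. Across the 43 members, the 2 sets of fold changes had a Pearson correlation of 0.886 and a Spearman correlation of 0.866, given as a description since genes are not independent replicates. Of all genes, 70.4% were called in either direction in untreated cells and 69.6% with DMSO. The share of all genes called alike in both experiments, and their correlation, were not computed. For 40 of 43 members, the fold change was more negative in untreated cells than with DMSO, although the tables were normalized separately and this difference was not tested.

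**Figure D2:**
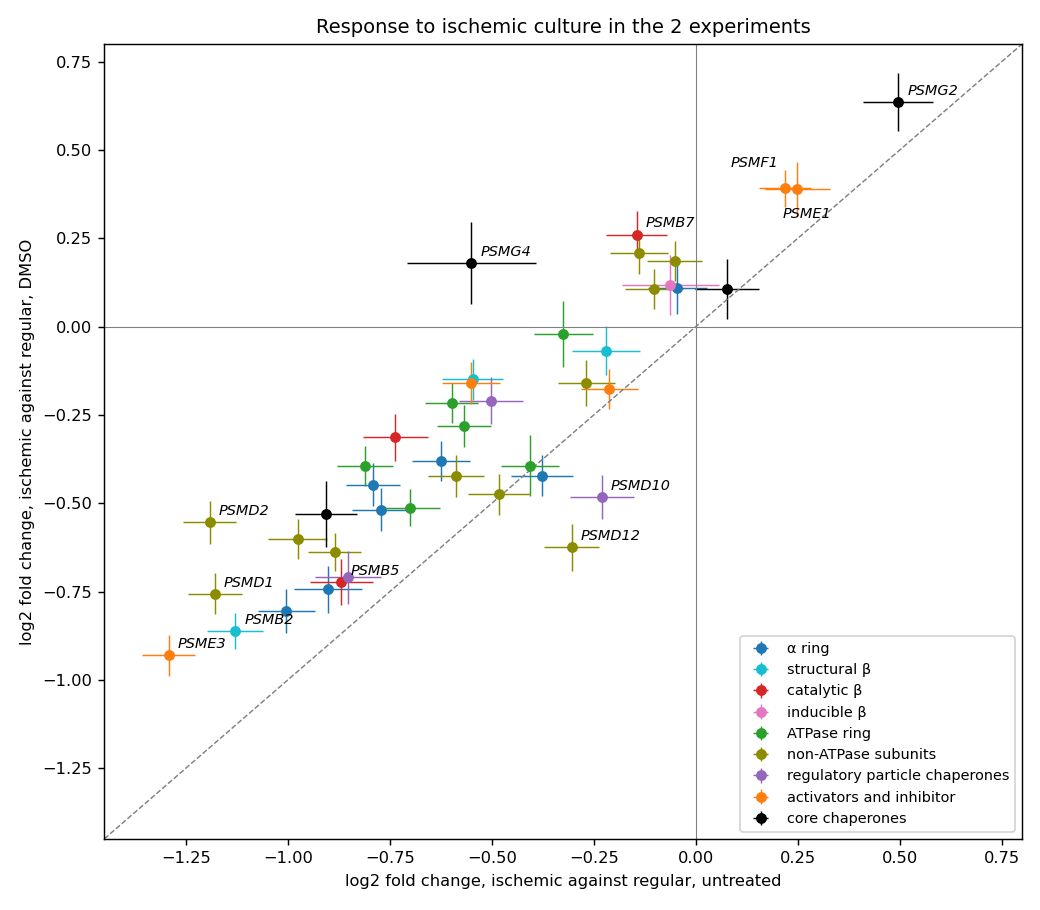
Log2 fold change of each of the 43 genes in ischemic against regular culture, in untreated cells (x axis) and with DMSO (y axis), with bars for the standard error and colours for the part of the proteasome. Most genes are negative on both axes and above the dashed line of equality, *PSME3* is the lowest on both axes and *PSMG2* the highest.

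The alpha ring and the structural beta subunits fell broadly. Of the 7 alpha ring genes, 6 were lower in each experiment, with median fold changes of −0.77 in untreated cells and −0.45 with DMSO. The exception in both was *PSMA6*, at −0.05 in untreated cells and 0.11 with DMSO. Of the 3 structural beta genes analysed, 3 were lower in untreated cells and 2 with DMSO. *PSMB2* had values of 8.04 and 8.02 in regular and 6.84 and 6.97 in ischemic untreated libraries. With DMSO, *PSMB2* had 8.24 and 8.30 in regular and 7.42 and 7.40 in ischemic libraries. Its fold changes were −1.13 (SE 0.07, adjusted p = 2.63e-08 by limma) and −0.86 (SE 0.05, adjusted p = 7.55e-11).

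The 3 catalytic subunits did not move alike. *PSMB5*, whose product cuts after hydrophobic residues and is the main target of bortezomib, had 7.64 and 7.53 in regular and 6.62 and 6.80 in ischemic untreated libraries. With DMSO, *PSMB5* had 7.70 and 7.75 in regular and 6.98 and 7.03 in ischemic libraries. It thus fell by 0.87 (adjusted p = 7.33e-07 by limma) and 0.72 (adjusted p = 2.3e-08), to 0.548 and 0.606 times its regular level. *PSMB6*, whose product cuts after acidic residues, had 6.81 and 6.70 in regular and 5.93 and 6.10 in ischemic untreated libraries, against 6.92 and 6.91 and then 6.64 and 6.56 with DMSO. It was lower in both experiments, by −0.74 and −0.31. *PSMB7*, whose product cuts after basic residues, had 7.18 and 7.01 in regular and 6.92 and 6.97 in ischemic untreated libraries, and this difference of −0.14 was not called (adjusted p = 0.0995). With DMSO, *PSMB7* had 7.28 and 7.20 in regular and 7.55 and 7.45 in ischemic libraries, and was higher (0.26, adjusted p = 0.00228). Under quantile normalization, which forces all libraries to 1 distribution, this rise was 0.11 and not called (adjusted p = 0.161), while the untreated difference was −0.24 and called (adjusted p = 0.0148 by limma). The untreated fall of *PSMB7* was also called with libraries centred on their median and without regular replicate 2 (−0.23).

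The order of the catalytic subunits by level per length therefore differed between the cultures. Per kilobase of transcript, *PSMB5* was the highest in regular DMSO libraries (log2 CPM per kilobase of 7.67 ± 0.03, SD, n = 2), above *PSMB7* (7.26 ± 0.06) and *PSMB6* (7.19 ± 0.01). In ischemic DMSO libraries, *PSMB7* was the highest (7.52 ± 0.07), above *PSMB5* (6.94 ± 0.03) and *PSMB6* (6.88 ± 0.05). *PSMB7* and *PSMB6* in regular culture, and *PSMB5* and *PSMB6* in ischemic culture, lay within about the spread of their libraries. *PSMB7* was also above *PSMB5* in untreated ischemic libraries (6.97 ± 0.04 against 6.65 ± 0.13) and below it in untreated regular ones (7.12 ± 0.12 against 7.52 ± 0.07). *PSMB10*, which replaces PSMB7 in the interferon-induced immunoproteasome, was far lower in all 8 groups, between 3.62 and 4.13 per kilobase. Its fold changes in ischemic culture, −0.06 and 0.12, were not called.

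The regulatory particle genes fell as well. All 6 ATPase genes were lower in untreated cells (median −0.58), and 5 of 6 with DMSO (median −0.34). The exception with DMSO was *PSMC1*, whose regular DMSO libraries differed from each other (7.33 and 6.88) and bracketed the ischemic ones (7.03 and 7.13). Without regular DMSO replicate 1, its fold change was 0.20 in place of −0.02. *PSMC1* also has 13 pseudogenes named after it, which can share reads with it. Of the 11 non-ATPase genes, 8 were lower in each experiment, with medians of −0.48 and −0.47. *PSMD2*, a large scaffold subunit that binds ubiquitin receptors, had 9.07 and 9.05 in regular and 7.83 and 7.91 in ischemic untreated libraries. With DMSO, *PSMD2* had 9.37 and 9.22 in regular and 8.70 and 8.78 in ischemic libraries. Its fall was thus −1.19 (SE 0.07, adjusted p = 9.94e-09 by limma) in untreated cells and −0.55 (SE 0.06, adjusted p = 2.66e-07) with DMSO.

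*PSMD14*, the deubiquitinase that removes the chain as the substrate enters, had 7.12 and 6.99 in regular and 6.79 and 6.78 in ischemic untreated libraries. With DMSO, *PSMD14* had 7.24 and 6.99 in regular and 6.96 and 6.95 in ischemic libraries. It was lower in both (−0.27 and −0.16), but the second call rests on regular DMSO replicate 1, without which the fold change was −0.04, and was lost in 5 of the 12 fits that left out a library. *PSMD4*, a ubiquitin receptor, had 8.01 and 7.94 in regular and 7.76 and 7.91 in ischemic untreated libraries, a difference of −0.14 that was not called. With DMSO, *PSMD4* had 8.07 and 7.91 in regular and 8.20 and 8.20 in ischemic libraries and was higher (0.21, adjusted p = 0.00571 by limma). *PSMD8*, a lid subunit, had 7.65 and 7.61 in regular and 7.78 and 7.85 in ischemic DMSO libraries and was also higher (0.19, adjusted p = 0.00816 by limma). Under quantile normalization neither rise with DMSO was called, and the fold changes were −0.01 for *PSMD4* and 0.03 for *PSMD8*. In untreated cells both were then called lower, at −0.28 for *PSMD4* and −0.20 for *PSMD8*, and *PSMD4* was also called lower with libraries centred on their median or without ischemic replicate 2 (−0.21).

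The alternative activators went in both directions. *PSME3*, which encodes the nuclear activator PA28 gamma, had 8.13 and 8.16 in regular and 6.83 and 6.88 in ischemic untreated libraries. With DMSO, *PSME3* had 8.12 and 7.97 in regular and 7.11 and 7.12 in ischemic libraries. It had the largest fall of all members in both experiments, at −1.29 (SE 0.06, adjusted p = 4.32e-09 by limma) and −0.93 (SE 0.06, adjusted p = 2.54e-10), or 0.408 and 0.524 times the regular level. *PSME1* and *PSME2* encode the 2 partners of the cytoplasmic activator PA28, and moved apart.
*PSME1* had 5.76 and 5.61 in regular and 5.90 and 5.98 in ischemic untreated libraries, and 5.94 and 5.79 against 6.27 and 6.25 with DMSO. It was higher in both (0.25 and 0.39). *PSME2* had 6.32 and 6.29 in regular and 5.75 and 5.77 in ischemic untreated libraries, and 6.50 and 6.47 against 6.29 and 6.36 with DMSO. It was lower in both (−0.55 and −0.16), with 6 pseudogenes named after it. *PSME4*, which encodes the activator PA200, was lower in both (−0.21 and −0.18), from 7.21 and 7.25 to 6.95 and 7.08 and from 7.33 and 7.42 to 7.25 and 7.14. The inhibitor gene *PSMF1* was higher in both (0.22 and 0.39), from 7.32 and 7.34 to 7.53 and 7.58 in untreated libraries and from 7.34 and 7.29 to 7.71 and 7.70 with DMSO. In untreated cells the rise of *PSMF1* was 0.06 and not called under quantile normalization, and was also not called without the variance trend or without regular replicate 1. The untreated rise of *PSME1* was not called without the variance trend or without regular replicate 2 (0.17), and the untreated fall of *PSME4* was not called without the variance trend or in 3 of the 4 fits that left out a library.

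Assembly chaperone genes were also split. PSMG1 and PSMG2 act as a pair that assembles the alpha ring. *PSMG2* had 4.68 and 4.73 in regular and 5.25 and 5.15 in ischemic untreated libraries, and 4.81 and 4.65 against 5.39 and 5.34 with DMSO. Its rise was the largest of the members in both experiments, at 0.50 (SE 0.09, adjusted p = 0.000236 by limma) and 0.63 (SE 0.08, adjusted p = 2.27e-06). *PSMG1* had 5.35 and 5.31 against 5.41 and 5.40 in untreated libraries and 5.49 and 5.50 against 5.61 and 5.59 with DMSO, and was not called in either (0.08 and 0.11). PSMG3 and PSMG4 form the other pair. *PSMG3* was lower in both (−0.91 and −0.53), with 6.53 and 6.40 against 5.55 and 5.57 in untreated libraries and 6.54 and 6.74 against 6.12 and 6.10 with DMSO. *PSMG4*, among the members with the fewest reads, had 3.53 and 3.51 against 3.22 and 2.72 in untreated libraries and 3.25 and 3.29 against 3.54 and 3.36 with DMSO. It was lower in untreated cells (−0.55, adjusted p = 0.00767 by limma) and not called with DMSO (0.18). The untreated call of *PSMG4* was lost in 3 of the 4 fits that left out a library, with −0.30 without ischemic replicate 2. The 3 chaperones of the regulatory particle were lower in both experiments. *PSMD5* had 5.87 and 5.85 against 4.95 and 5.06 in untreated libraries and 5.69 and 5.58 against 4.91 and 4.94 with DMSO, falls of −0.85 and −0.71. *PSMD9* had 5.71 and 5.65 against 5.14 and 5.20, and 5.79 and 5.79 against 5.61 and 5.54, falls of −0.50 and −0.21. *PSMD10*, also known as gankyrin, had 5.69 and 5.58 against 5.39 and 5.42, and 5.64 and 5.63 against 5.15 and 5.16, falls of −0.23 and −0.48.

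**Figure D3:**
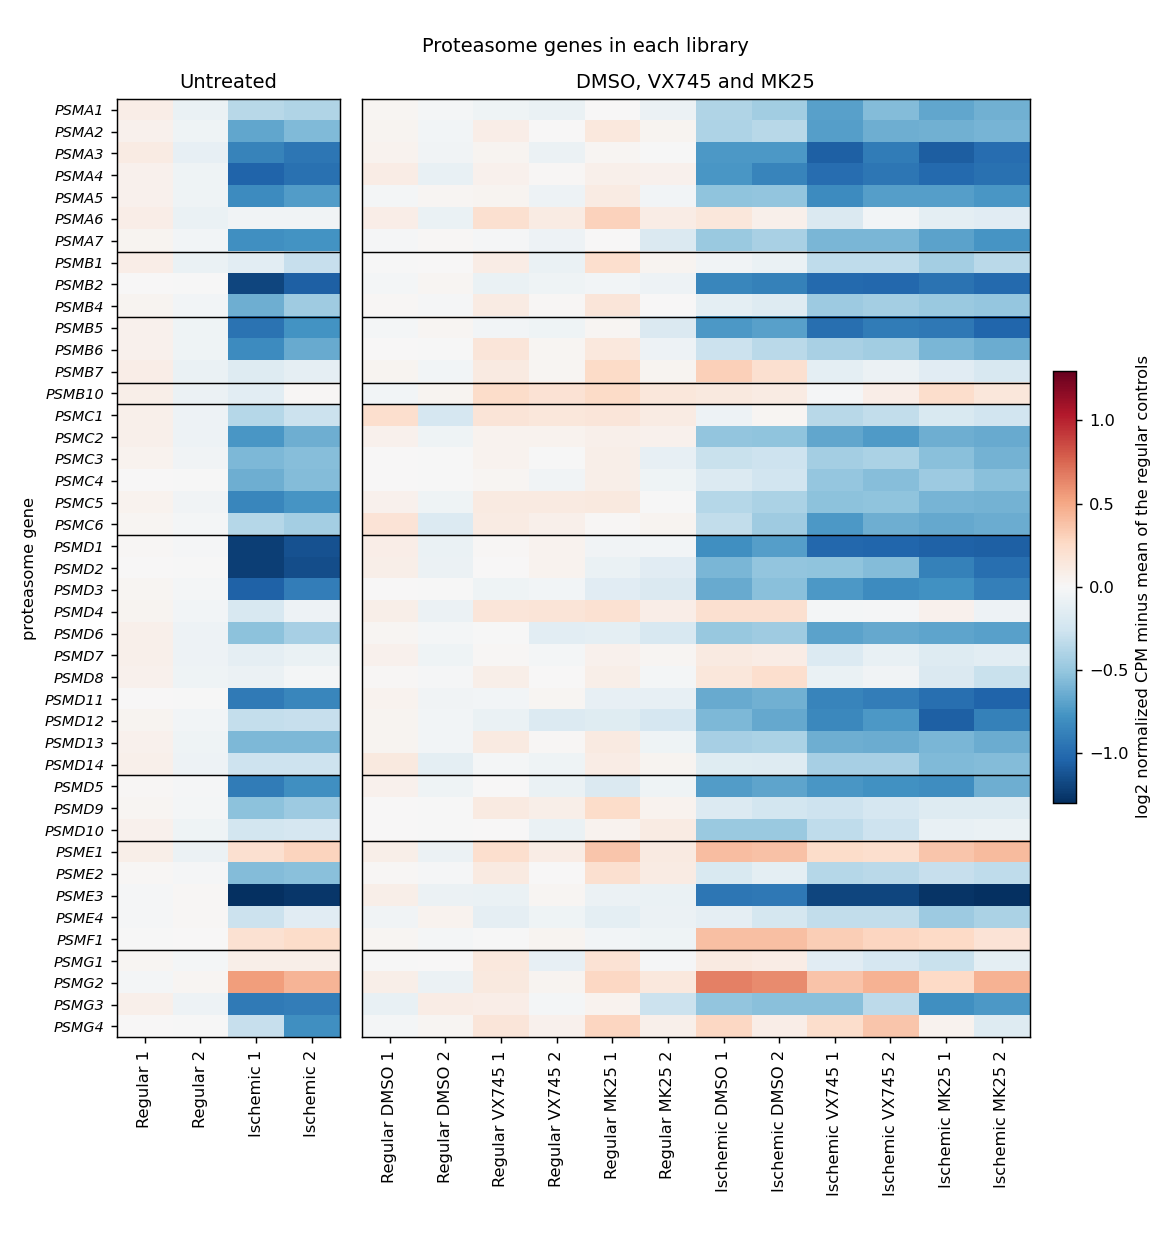
Log2 normalized CPM of each of the 43 genes in each of the 16 libraries, minus the mean of the 2 regular untreated libraries (left) or the 2 regular DMSO libraries (right), with lines between the parts of the proteasome. Most genes are blue (lower) in ischemic libraries, while *PSME1*, *PSMF1* and *PSMG2* are red (higher), and the ischemic inhibitor libraries are bluer than the ischemic DMSO libraries.

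Other genes of the pathway were taken from a list of 29 without a PSM symbol. In ischemic culture, 8 of the 29 were higher and 13 lower in untreated cells, and 11 were higher and 15 lower with DMSO, beside the 35.2% higher and 35.2% lower of all genes in untreated cells and 34.4% and 35.2% with DMSO. *NFE2L1*, whose product activates proteasome genes, had 8.74 and 8.84 in regular and 10.49 and 10.53 in ischemic untreated libraries. With DMSO, *NFE2L1* had 8.92 and 8.88 in regular and 10.43 and 10.48 in ischemic libraries. It thus rose by 1.72 (adjusted p = 6.79e-10 by limma) and 1.55 (adjusted p = 1.34e-13), or 3.29 and 2.94 times. *NGLY1*, which encodes the enzyme that removes glycans from NFE2L1 protein, also rose (1.40 and 0.77), as did the related factor *NFE2L2* (0.62 and 0.46). *DDI2*, which encodes the protease that cleaves NFE2L1 protein into its active form, was lower (−0.35 and −0.30). *POMP*, a core maturation factor, was lower (−0.66 and −0.79). *UBB*, a gene that encodes ubiquitin, was lower in untreated cells (−0.82) and not called with DMSO (0.11). It was not typical of the 6 listed genes for ubiquitin and its activation. Of these 6, 3 were higher and 1 lower in untreated cells (median 0.30), and 4 were higher and 0 lower with DMSO (median 0.39). RNA levels do not give the processing of NFE2L1 protein, which was not measured in these data.

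**Figure D4:**
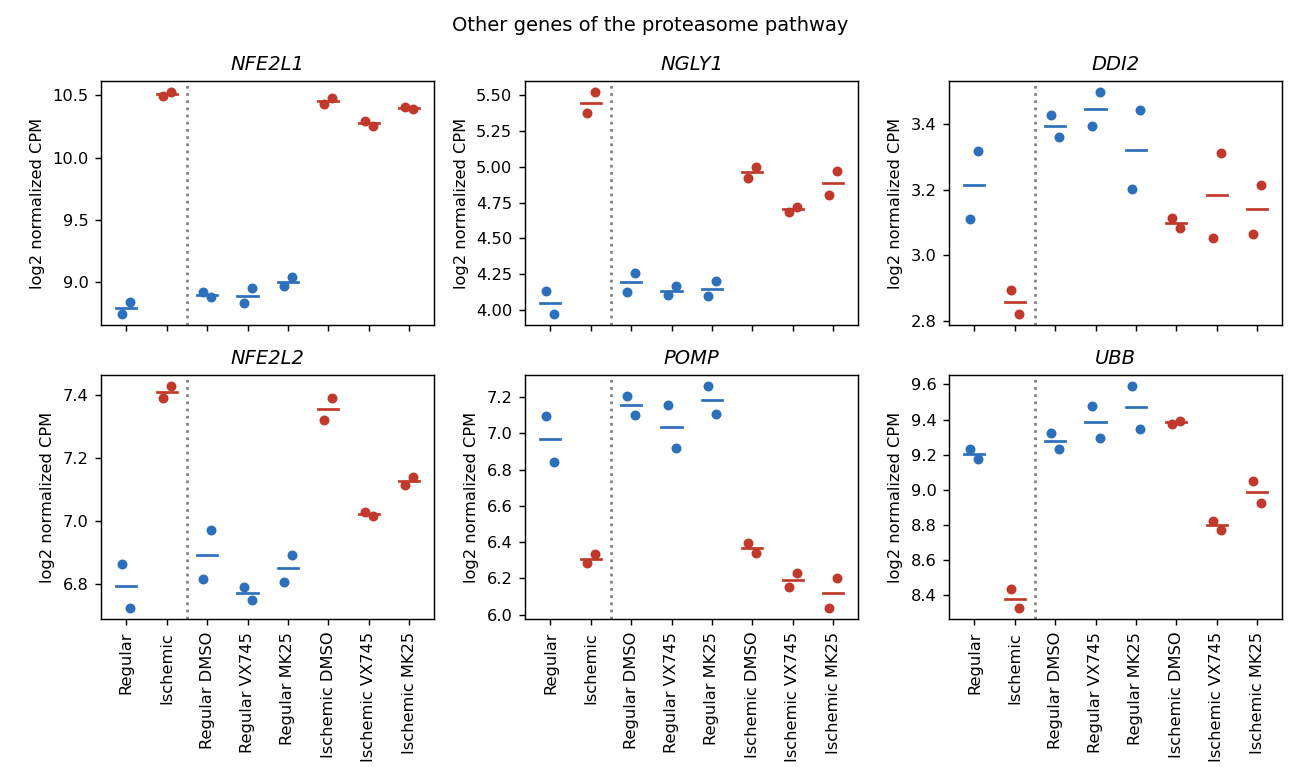
Log2 normalized CPM of *NFE2L1*, *NGLY1*, *DDI2*, *NFE2L2*, *POMP* and *UBB* in each library (points) with the group mean (lines), on an axis range of its own for each gene that does not start at 0. *NFE2L1*, *NGLY1* and *NFE2L2* are higher in all ischemic libraries (red) than in all regular libraries (blue).

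In regular culture, no member was called with either inhibitor. With VX745, fold changes against DMSO lay between −0.13 and 0.21, with a median of 0.03. Few genes were called at all, 0.178% higher and 0.157% lower, and 2 members had an unadjusted p under 0.05 by limma (median SE 0.06), as had 14.8% of all genes. With MK25, fold changes lay between −0.19 and 0.23, with a median of 0.04, while 7.0% of all genes were called higher and 5.21% lower. Unadjusted, 10 members were under 0.05 there by limma, as were 27.6% of all genes. With voom on reads recovered from the values, 0 members were called with either inhibitor. With the replicate number as a block, 1 (*PSME1*, 0.23, adjusted p = 0.0348 by limma) was called higher with MK25. The count with MK25 rests on regular DMSO replicate 1 and regular MK25 replicate 2, since some members were called higher when 1 of them was left out. Those calls were not read against the share of all genes called in the same fits. In each of the 4 regular groups most members were higher in replicate 1 than in replicate 2 (39 of 43 untreated, 33 with DMSO, 33 with VX745 and 38 with MK25), with median differences between 0.06 and 0.10. In ischemic culture, 33 of 43 were instead higher in replicate 2 untreated (median difference −0.06) and 27 with VX745. There, 24 were higher in replicate 1 with DMSO and 26 with MK25. Over all genes the median differences lay between −0.0085 and 0.0039. The part that these replicate differences play in the values above was not tested.

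In ischemic culture, both inhibitors lowered the normalized values of proteasome genes further. With VX745, 26 of 43 members were lower than with DMSO, 1 was higher and 16 were not called, against 14.9% and 14.0% of all genes. The median fold change was −0.21 (a ratio of 0.863), against 0.00 for all genes. With MK25, 34 were lower, 1 was higher and 8 were not called, against 22.0% and 19.8% of all genes, and the median was −0.25 (a ratio of 0.842). These 2 comparisons share the DMSO libraries. The library sizes behind the normalized values were 24580040 and 29383924 for ischemic DMSO, against 27239609 and 32850374 reads on listed genes. They were closer to the reads with VX745 (32820099 and 31027116 against 33704896 and 31694666) and MK25 (36854072 and 35278152 against 37562668 and 35795468). A smaller size raises the values. Unscaled mean shares of reads were 0.574% with DMSO, 0.545% with VX745 and 0.523% with MK25. The part of this scaling in the falls was not tested. The counts depend on the scaling. Under quantile normalization, 10 were lower and 2 higher with VX745 (median −0.13), and 18 were lower and 1 higher with MK25 (median −0.15). Of all genes, 21.2% with VX745 and 35.1% with MK25 were called there in either direction. The VX745 count also moved when a library was left out, to 15 without ischemic DMSO replicate 1, 14 without ischemic DMSO replicate 2, 10 without ischemic VX745 replicate 1 and 16 without ischemic VX745 replicate 2. All 27 members called with VX745 kept their direction when each library was left out.

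By part of the proteasome, 5 of 7 alpha ring genes were lower with VX745 and 7 of 7 with MK25. Of the ATPase genes, 4 of 6 were lower with each inhibitor, and of the non-ATPase genes, 9 and 11 of 11. *PSMB7* had the largest fall with each inhibitor. It had 7.55 and 7.45 in ischemic DMSO libraries, 7.12 and 7.17 with VX745 and 7.09 and 7.03 with MK25, below the lower DMSO library in all 4. Its fold changes were −0.36 (SE 0.07, adjusted p = 0.00081 by limma) and −0.44 (SE 0.07, adjusted p = 6.86e-05). *PSMB5* had 6.75 and 6.82 with VX745 and 6.80 and 6.70 with MK25, and was lower with each (−0.22 and −0.26). *PSMB6* had 6.49 and 6.46 with VX745, which was not called (−0.12), and 6.32 and 6.26 with MK25, which was lower (−0.31). *PSMD8* had 7.54 and 7.58 with VX745 and 7.44 and 7.34 with MK25, falls of −0.25 and −0.42. *PSMD14* had 6.69 and 6.69 with VX745 and 6.54 and 6.55 with MK25, falls of −0.27 and −0.41. *PSMD4* had 7.96 and 7.97 with VX745 and 8.04 and 7.92 with MK25, falls of −0.23 and −0.22. *PSMD2* had 8.77 and 8.73 with VX745, which was not called (0.01, adjusted p = 0.93 by limma) but was higher under quantile normalization (0.18, adjusted p = 0.0223), and 8.42 and 8.32 with MK25, a fall of −0.37. *PSMC1* had 6.74 and 6.78 with VX745, a fall of −0.32, and 6.91 and 6.85 with MK25, which was not called (−0.20). Over the 8 alternatives with no library left out, VX745 calls were lost in 2 each for *PSMB5* and *PSMC1* and in 1 each for *PSMD4* and *PSMD8*. MK25 calls were lost there in 1 each for *PSMB5* and *PSMD4*. The smallest falls of *PSMD4* over these alternatives were −0.10 with VX745 and −0.09 with MK25.

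Of the 6 members that were higher in ischemic culture with DMSO, 3 (*PSMB7*, *PSMD4* and *PSMD8*) were lower with VX745. With MK25, 5 were lower, as *PSMF1* and *PSMG2* were lower too. Of all 43 members, 26 were lower with VX745 and 34 with MK25. Among all genes higher in ischemic culture with DMSO, the share lower with an inhibitor was not computed. *PSMG2* had 5.11 and 5.18 with VX745, which was not called (−0.22, adjusted p = 0.0506 by limma), and 4.99 and 5.18 with MK25, which was lower (−0.28). *PSMF1* had 7.63 and 7.60 with VX745 and 7.58 and 7.50 with MK25. *PSME1* had 6.11 and 6.08 with VX745 and 6.22 and 6.28 with MK25, and was called with neither. All these comparisons use the ischemic DMSO libraries, so a value of those libraries enters a rise and a fall alike. *PSME3*, already the most lowered member, had 6.85 and 6.85 with VX745 and 6.77 and 6.69 with MK25, further falls of −0.26 and −0.39. *PSME4* was not called with VX745 (7.05 and 7.05, −0.14) and was lower with MK25 (6.90 and 6.96, −0.27). *PSME2* was lower with each (6.12 and 6.13, and 6.19 and 6.16, at −0.20 and −0.15), and the second call was lost in 6 of 12 fits with a library left out.

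*PSMD10* was the only member called higher with an inhibitor in ischemic culture. It had 5.15 and 5.16 with DMSO, 5.31 and 5.37 with VX745 and 5.54 and 5.55 with MK25, and the 3 groups did not overlap. Its rises were 0.19 (SE 0.06, adjusted p = 0.0329 by limma) and 0.40 (SE 0.06, adjusted p = 9.01e-05). The rise with VX745 was no longer called in 4 of the 12 fits that left out a library. The ischemic MK25 level of *PSMD10* stood just below its regular DMSO level of 5.64 and 5.63. The other chaperones of the regulatory particle were not called with either inhibitor, *PSMD5* at 4.88 and 4.84 and then 4.82 and 5.00, and *PSMD9* at 5.51 and 5.56 and then 5.62 and 5.62. Of the core chaperones, *PSMG1* was lower with VX745 (5.35 and 5.28, −0.29) and MK25 (5.21 and 5.37, −0.31). The VX745 call of *PSMG1* was lost in 1 of the 8 alternatives with no library left out. *PSMG3* was not called with VX745 (6.09 and 6.30) and was lower with MK25 (5.84 and 5.89, −0.24, a call lost in 6 of 12 fits with a library left out), and *PSMG4* was called with neither (3.50 and 3.63, and 3.31 and 3.10). *PSMB10* was called with neither (3.86 and 3.97, and 4.11 and 4.03).

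**Figure D5:**
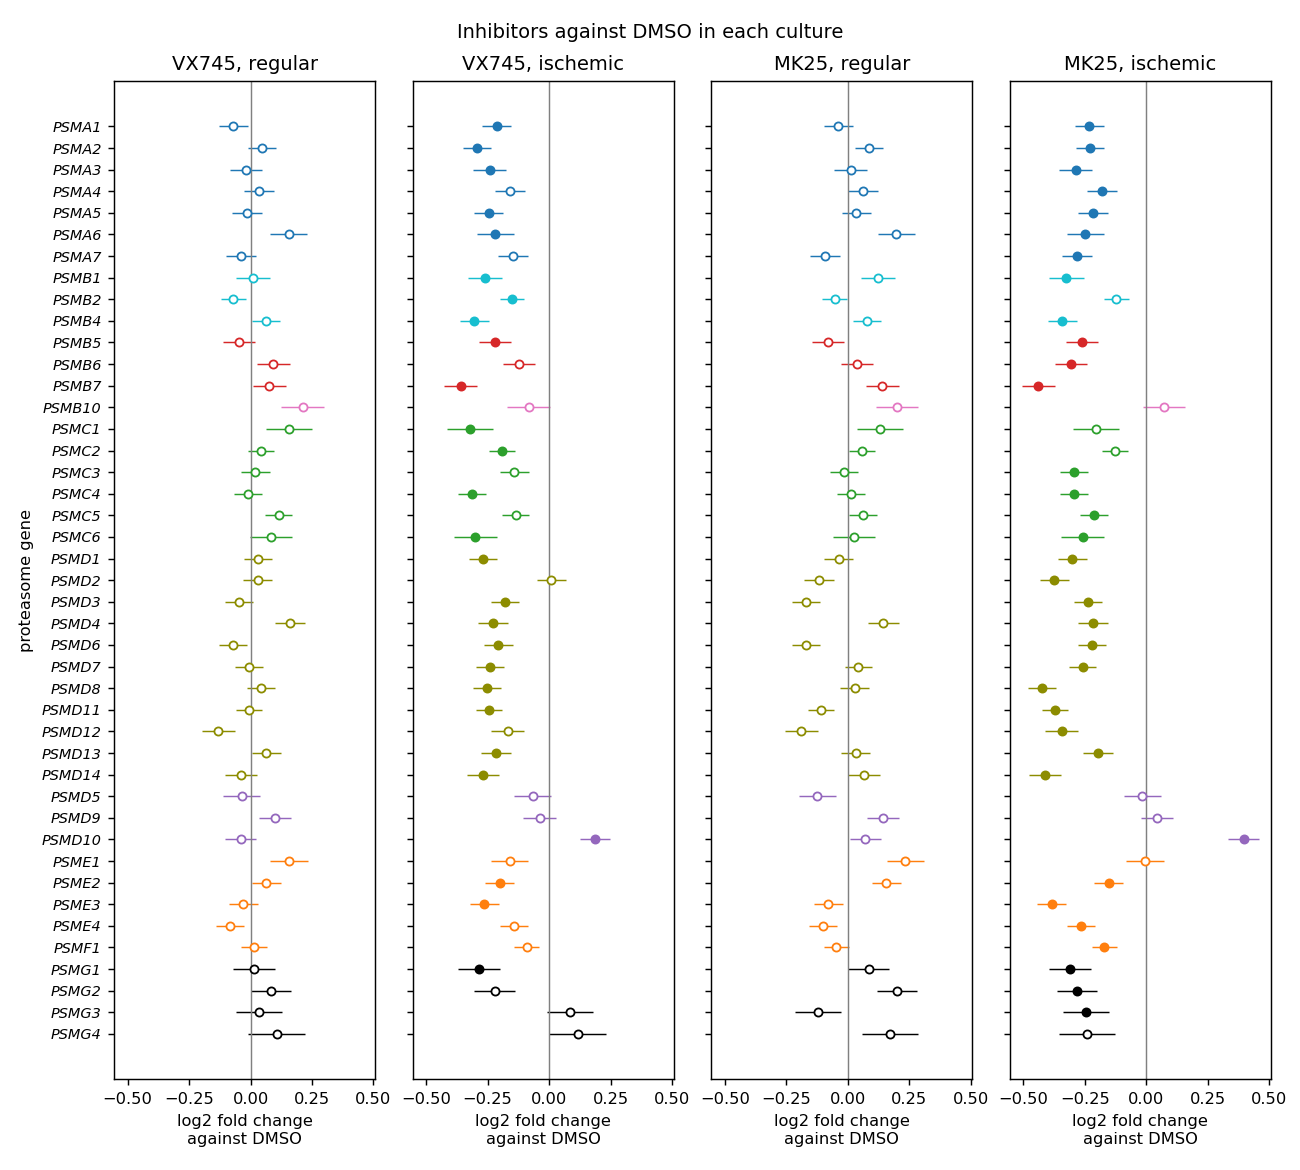
Log2 fold change of each of the 43 genes with VX745 or MK25 against DMSO in regular and in ischemic culture, with bars for the standard error, filled points for genes called at an adjusted p under 0.05 and colours for the part of the proteasome. No point is filled in regular culture, and in ischemic culture most filled points are negative, with *PSMD10* the only positive one.

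The difference between the cultures was tested as the interaction of inhibitor and culture, the fold change in ischemic minus that in regular culture. For VX745, 14 members had a called interaction, all negative, while 11.8% of all genes were called in either direction. For MK25, 23 members were called, 22 negative and *PSMD10* positive, while 24.4% of all genes were called. The median interaction of the members was −0.23 for VX745 and −0.26 for MK25. The most negative in value were *PSMC1* (−0.48, adjusted p = 0.0263 by limma) and *PSMB7* (−0.44, adjusted p = 0.00824) for VX745, and *PSMB7* (−0.58, adjusted p = 0.000349) and *PSMG2* (−0.48, adjusted p = 0.00595) for MK25. The VX745 interaction of *PSMC1*, whose regular DMSO libraries differed, ranged from −0.70 to −0.26 with a library left out and lost its call in 6 of these 12 fits. For *PSMD10* with MK25 the interaction was 0.32 (adjusted p = 0.0128 by limma). Under quantile normalization, 1 and 11 members were called, against 7.32% and 20.6% of all genes. Without the trend of the variance on the mean, 0 and 13 were called, against 4.24% and 18.6% of all genes. The share of all genes called also fell in the fits, given next, that left out a library. When single libraries were left out, the VX745 count fell to 2 without ischemic VX745 replicate 1, 3 without regular VX745 replicate 1, 4 without ischemic DMSO replicate 1 or regular DMSO replicate 2, 5 without ischemic VX745 replicate 2 and 7 without ischemic DMSO replicate 2. The MK25 count fell to 13 without regular MK25 replicate 1 and 15 without regular DMSO replicate 2.

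Among the 29 other pathway genes in ischemic culture, 18 were lower and 0 higher with VX745, against 14.9% and 14.0% of all genes. With MK25, 19 were lower and 2 higher, against 22.0% and 19.8% of all genes. *UBB* was lower with VX745 (−0.59, adjusted p = 3.48e-05 by limma) and with MK25 (−0.40, adjusted p = 0.000542). *NFE2L1* was lower with VX745 (−0.18, adjusted p = 0.026 by limma) and not called with MK25 (−0.06), and stayed above its regular level in all ischemic libraries. *NFE2L2* was lower with each inhibitor (−0.33 and −0.23). *DDI2* was called with neither.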

How the data were processed

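RNA of LN229 cells was sequenced as 16 libraries (SMART-Seq mRNA HT and Nextera XT, paired-end). Trimmed reads were aligned by the authors to GRCh38 with HISAT2 in Galaxy, and the authors deposited log2 normalized CPM values made with edgeR, in a table per experiment, each normalized apart. The read counter and the annotation release are not given in the sources used here. Entrez identifiers were matched to symbols (99.4% and 99.3% of rows). The values include an offset of about 1.49 to 2.62 reads. Whole reads were recovered (100% of values, tolerance 0.01), which gave the depth of 20122017 to 37562668 reads.

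The study's test takes counts. As the deposited values are log2, limma (version 3.58.1 in R 4.3.3) was fitted to all genes of a table with a mean per group and a variance trend. P-values are two-sided, with Benjamini-Hochberg adjustment over all genes, and a call is an adjusted p under 0.05. The script was tested on simulated counts for the 2 ischemia comparisons only, with a fixed spread and no shift shared by a family of genes. At a log2 change of 0.5, 91% (untreated) and 93% (DMSO) of changed genes were called in the right direction. There 3 and 11 unchanged genes were called. The inhibitor and interaction comparisons were not simulated. In all, 8 comparisons were made. The members and lists were chosen with earlier results of these data known. The genes with a value per library are the catalytic, inducible and ubiquitin-handling subunits, activators, inhibitor, chaperones, and the 2 largest called rises and falls of each comparison. Strand use is not stated, so antisense reads cannot be told apart, and 20 members have pseudogenes named after them (50 in all). Promoter sequences and coordinates are from RefSeq (GRCh38.p14). Alternatives were median centring, quantile normalization, a mean of at least 1 CPM, 1 CPM added before the log2, no variance trend, a block for the replicate number, fits to the compared groups alone, voom on recovered reads, and each library left out.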

Additional observations from a re-analysis of the deposited data

Results flagged for a closer look

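Members are listed here because the effect of an inhibitor differed between ischemic and regular culture by the interaction term of limma at an adjusted p under 0.05. For VX745 this held for 14 members. Among the genes with values per library, the interaction was −0.44 for *PSMB7*, −0.48 for *PSMC1*, −0.39 for *PSMD4*, −0.30 for *PSMD8* and −0.26 for *PSME2*. With a library left out, the call was lost in 9 of 12 fits for *PSME2* and in 6 of 12 each for *PSMC1* and *PSMD8*. For MK25 it held for 23 members. The interaction was −0.58 for *PSMB7*, −0.34 for *PSMB6*, −0.48 for *PSMD14*, −0.26 for *PSMD2*, −0.36 for *PSMD4*, −0.45 for *PSMD8*, −0.31 for *PSME2*, −0.31 for *PSME3*, −0.40 for *PSMG1* and −0.48 for *PSMG2*, and positive only for *PSMD10*, at 0.32. Here the call was lost in 6 of 12 fits for *PSMD2* and 5 of 12 for *PSMG1*. In each regular group most members were higher in replicate 1 than in replicate 2, and the part of this in the interactions was not tested. With 2 libraries per group, no test for a stray library within a group could be made.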

How the results depend on the processing

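In ischemic against regular culture, the 36 called members (33 lower and 3 higher in untreated cells, 30 lower and 6 higher with DMSO) kept their direction when each library was left out, with at least 30 and 31 still called. Counts were within 1.5 times those given with voom on the recovered reads, with 1 CPM added, with genes of a mean of at least 1 CPM and with only the groups compared. With libraries centred on their median, the untreated median was −0.59 and 0 members were called higher with VX745 in ischemic culture. Under quantile normalization the medians were −0.59 (untreated) and −0.49 (DMSO) in ischemic culture and −0.13 (VX745) and −0.15 (MK25) against DMSO in ischemic culture. There 3 members were called higher in ischemic culture with DMSO, 2 higher and 10 lower with VX745, 18 lower with MK25, and 1 and 11 for the interactions, and *PSMD4* in ischemic culture with DMSO turned to −0.011. Without the variance trend, 1 member was higher in untreated cells, 17 were lower with VX745, and 0 and 13 had an interaction. Of all genes, 7.32% and 20.6% had a called interaction under quantile normalization, and 4.24% and 18.6% without the variance trend. The replicate number as a block gave 1 member (*PSME1*, 0.23, adjusted p = 0.0348 by limma) called higher with MK25 in regular culture and moved no other count by over 1.5 times. Same-numbered libraries correlated at 0.153 in the first experiment and from −0.09 to 0.13 in the second, so the numbers were not taken as pairs. With each library left out, members lower in ischemic culture ranged from 28 to 32 (untreated) and 26 to 30 (DMSO), those higher from 2 to 3 and 5 to 8, and the medians from −0.57 to −0.52 and −0.42 to −0.31. With VX745 in ischemic culture 10 to 29 were lower and 0 to 1 higher (median −0.22 to −0.19), and with MK25 24 to 37 were lower and 1 higher (−0.26 to −0.24). In regular culture 0 to 1 members were higher with VX745 (median −0.01 to 0.06) and 0 to 5 with MK25 (median −0.018 to 0.071, negative at −0.016 and −0.018 without regular DMSO replicate 2 or regular MK25 replicate 1). Interactions ranged from 2 to 20 (VX745) and 13 to 28 (MK25). *PSMC1* in ischemic culture with DMSO turned to 0.20 without regular DMSO replicate 1. Where a fit left 1 library in a group, it was assumed to vary like the others. The causes of these shifts were not tested.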
